A study of Mus musculus with 51 samples.

Results

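Collagens other than type IV were followed through the last days of kidney development in mouse fetuses. The members are the rows of the deposited expression table whose symbol has the form Col, a number, a and a number, type IV excluded, with a mean value of at least 10 over all libraries. They are 37 of the 16099 genes in the table, 11 fibrillar and 26 of other types. Another gene of this form, Col19a1, was left out with a mean of 9.59, and Col10a1 (13.1) and Col28a1 (20.5) lay just above the limit. Poly-A RNA of whole fetal kidneys from C57BL/6 mice, labelled WT and with no treatment named in the labels, was sequenced every 4 h at 13 time points. These are CT0, CT4, CT8, CT12, CT16, CT20, CT24, CT28, CT32, CT36, CT40, CT44 and CT48, where CT is the hour of the series, and the labels place CT0 on E18, CT24 on E19 and CT48 on E20. Each time point has 4 libraries, except CT20 with 3, which makes 51. The labels call the libraries biological replicates and name no dam or litter, so the p-values measure the spread between these samples. The series title names the circadian clock and developmental time, and the comparisons here ask how collagen transcripts changed with fetal age and with clock time.

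Collagens are secreted proteins built of 3 chains wound into a triple helix. Fibrillar collagens assemble into the cross-banded fibrils of connective tissue, with types I and III as the bulk and types V and XI at the fibril core, where they start and limit fibril growth. Other types sit on fibril surfaces (the FACIT collagens), form beaded filaments (type VI), anchor epithelia (type VII), build hexagonal networks (types VIII and X), lie in or near basement membranes (types XV and XVIII) or span the plasma membrane (types XIII, XVII, XXIII and XXV). In the kidney, fibrillar collagens are made mainly by interstitial stromal cells and the cells of vessel walls and capsule. A change in a whole organ may come from more or fewer such cells or from more or less RNA per cell, and these cannot be told apart in bulk samples.

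The deposited values were already normalised, with library totals from 34226024 to 35711911, so sequencing depth is unknown. Gene means had been made alike between CT28 to CT48 (24 libraries, 6 time points) and CT0 to CT24 (27 libraries, 7 time points). Levels were therefore compared only inside each part, and a level at CT28 is not set against one at CT24. Inside a part, fetal age and clock time move together. Only CT24 and CT0 share a clock time, on consecutive embryonic days. In the other comparisons inside a part, age and clock time cannot be told apart. The spread between libraries of a time point was wider in the second part, with a median SD of log2 values over all genes of 0.136, against 0.0748 in CT0 to CT24. Library CT20 replicate 1 had a fibrillar sum of 130575, against 189975 and 191144 in the other libraries of CT20, with 10 of 11 fibrillar and 21 of 26 other members below both. Library CT44 replicate 1 had 136651, against 190395 to 202811 in the other CT44 libraries, with 7 fibrillar and 15 other members below all of them. Library CT40 replicate 3 had 193144, against 144559 to 152313, and the highest sum of skeletal muscle markers in the series (3388, median of all libraries 468). Some counts of members that passed are also given without these libraries, but values of single members are given with them.

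Per kb of annotated exon (GENCODE M21, GRCm38), the mean deposited value over 51 libraries placed Col3a1, the chain of type III collagen, first with 6347. Col1a1 and Col1a2, the 2 chains of type I collagen, followed at 4709 and 3527, with Col18a1, a basement membrane collagen whose C-terminal end is released as endostatin, between them at 3597. Next came Col6a1 (2339), Col15a1 (1619), Col6a2 (1287) and Col5a1 (1258). The ranges over libraries overlapped for 35 of the 36 pairs of neighbours in this order, all but Col23a1 and Col27a1, so neighbours are otherwise not ordered beyond their spread. The lowest were Col10a1 (4.18), Col28a1 (4.18) and Col22a1 (3.44). Of the collagens known best from cartilage, Col2a1 was at 146, Col9a2 at 104.1, Col11a1 at 63.6, Col11a2 at 62.1, Col9a1 at 57.1 and Col9a3 at 38.0 per kb. Together the 11 fibrillar members made up from 0.37 to 0.585% of a library's total value, and the 26 others from 0.22 to 0.314%.

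**Figure D1:**
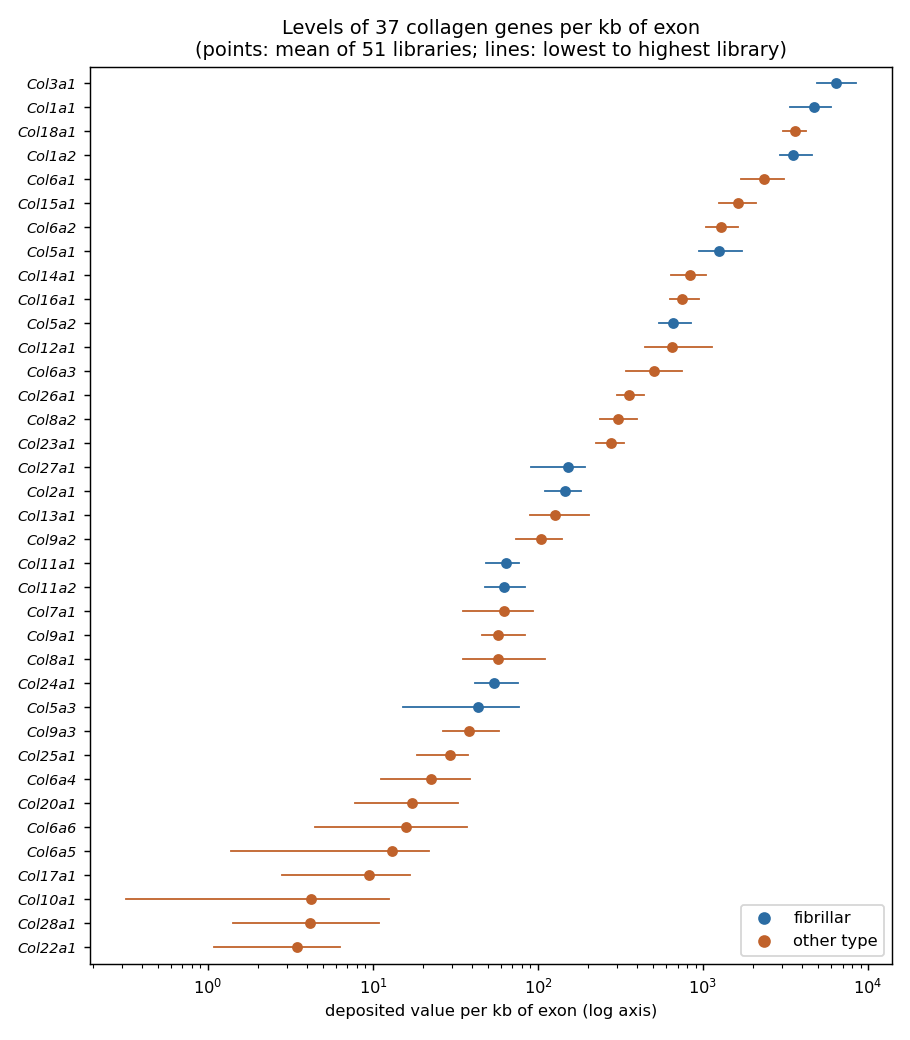
Mean deposited value per kb of exon (log axis) of the 37 collagen genes over 51 libraries, with lines from the lowest to the highest library. Col3a1, Col1a1, Col18a1 and Col1a2 lie at 3527 or more per kb and Col22a1 at 3.44.

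Most fibrillar collagens rose between CT28 and CT48. The slope over hours passed the test for 8 of 11 fibrillar members, 7 upward and 1 downward (limma, adjusted p under 0.05 over 14426 genes). Over all genes tested, 59.3% passed in either direction, 28.7% upward and 30.7% downward, so the share of fibrillar members that passed upward lies above that background. The median fibrillar slope was 0.48 log2 units per 24 h, and that of all genes was -0.02. Upward slopes were those of Col5a1, Col3a1, Col24a1, Col5a2, Col2a1, Col11a2 and Col1a2, and the downward slope was that of Col27a1. In CT0 to CT24, 1 of 11 fibrillar members passed, Col24a1, upward, against 22.9% of all genes in either direction, 12.9% upward and 10% downward. Without CT20 replicate 1 and CT44 replicate 1 the counts were 9 of 11 in CT28 to CT48 and 0 of 11 in CT0 to CT24. Without CT40 replicate 3 and CT36 replicate 4, the libraries of CT28 to CT48 highest in skeletal muscle markers, 8 of 11 passed in CT28 to CT48. The calls rest largely on the first time points of that part: without CT28 and CT32, 2 of 11 passed, Col5a1 and Col1a2, while calls among all genes fell to 1074, against 8561 with all time points. Library totals at CT28 and CT32 (3.52e+07 to 3.57e+07) were above those of all other libraries (highest 3.51e+07, CT20 replicate 2). With median ratio scaling 8 of 11 fibrillar members passed in CT28 to CT48, and with quantile scaling 10 of 11.

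**Figure D2:**
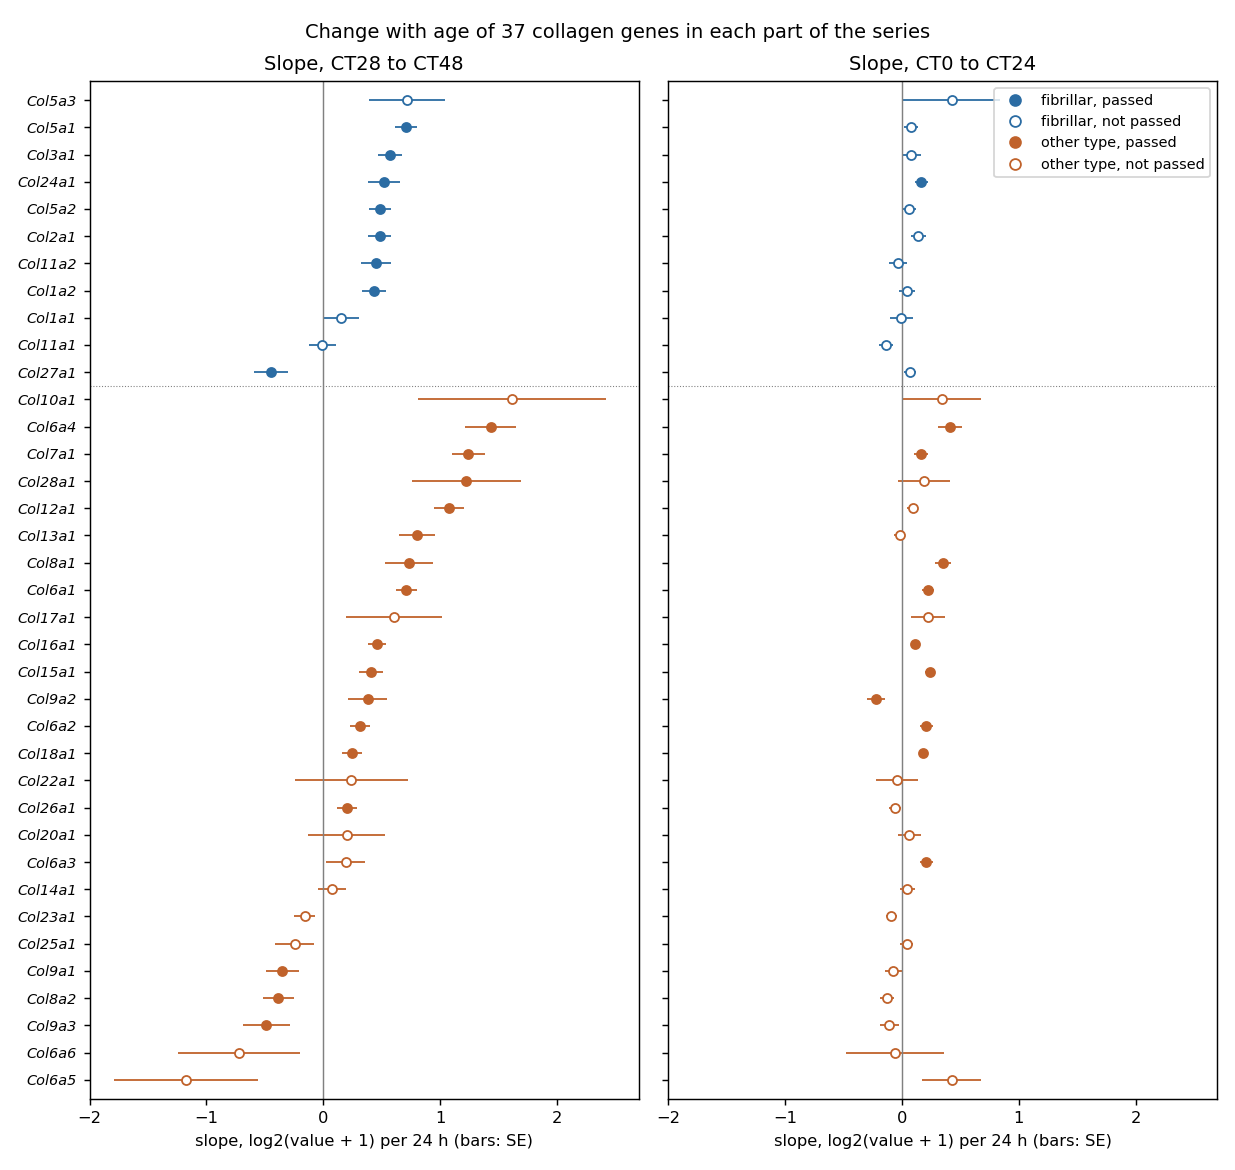
Slope of log2(value + 1) per 24 h with its SE for each of the 37 members, fibrillar above the dotted line and other types below it, in CT28 to CT48 (left) and CT0 to CT24 (right); filled points passed the test. Among the fibrillar members 8 points are filled on the left and 1 on the right.

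Col5a1, which encodes the main chain of the type V collagen that starts type I fibrils, had the largest fibrillar slope that passed. Its values were 12364, 14629, 13252 and 13454 at CT48, and 8704, 8909, 9005 and 8805 at CT28. Every CT48 library lay above every CT28 library, and the difference was 0.60 ± 0.09 (log2, SE; adjusted p = 3.45e-06, limma). Its slope was 0.70 ± 0.09 per 24 h in CT28 to CT48 (adjusted p = 2.81e-07) and 0.08 ± 0.06 in CT0 to CT24 (adjusted p = 0.368). The difference between these slopes passed as well (0.63 ± 0.11, adjusted p = 3.91e-06). Its partner Col5a2 had 7252, 6565, 7159 and 7170 at CT48, and 5211, 5770, 5811 and 5578 at CT28, again with no overlap. Its slopes were 0.49 ± 0.09 in CT28 to CT48 (adjusted p = 4.61e-05) and 0.06 ± 0.06 in CT0 to CT24 (adjusted p = 0.537). The further type V chain, Col5a3, varied widely between libraries, with 231, 189, 412 and 460 at CT48 and 215, 258, 291 and 162 at CT28, and did not pass (0.72 ± 0.32, adjusted p = 0.0589).

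Col3a1 had 68592, 60472, 72626 and 77147 at CT48, and 54559, 48379, 55399 and 52202 at CT28. The groups did not overlap, and the difference was 0.40 ± 0.10 (adjusted p = 0.00195). Its slope was 0.57 ± 0.10 in CT28 to CT48 (adjusted p = 2.33e-05) and 0.08 ± 0.08 in CT0 to CT24 (adjusted p = 0.486). Its values at the ends of the first part overlapped, with 62326, 59219, 58926 and 65825 at CT24 and 54568, 55593, 67412 and 58876 at CT0. Col3a1 lies on chromosome 1 from 45311538 to 45349706, and Col5a2 lies next to it on the other strand from 45374321 to 45503282 (GENCODE M21, GRCm38).

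The chains of type I collagen gave unlike test results. Col1a2 had 48589, 47870, 50775 and 54417 at CT48, and 42096, 36666, 41756 and 41233 at CT28, without overlap. It rose by 0.43 ± 0.10 per 24 h in CT28 to CT48 (adjusted p = 0.000474), and its CT0 to CT24 slope was 0.04 ± 0.07 (adjusted p = 0.719). Col1a1, named here after its values were seen, had 31605, 35241, 35586 and 37264 at CT48, and 31967, 29130, 32904 and 32002 at CT28. These groups overlap at their edge, and its slopes of 0.15 ± 0.15 in CT28 to CT48 (adjusted p = 0.379) and -0.01 ± 0.10 in CT0 to CT24 (adjusted p = 0.975) did not pass. With quantile scaling the CT28 to CT48 slope of Col1a1 was 0.50 and passed (adjusted p = 0.00713), so its call depends on the scaling. Per kb of exon, Col1a1 over Col1a2 averaged 1.31 ± 0.07 at CT48 and 1.48 ± 0.03 at CT28 (SD, n = 4 each), with no overlap (highest library 1.39 at CT48, lowest 1.44 at CT28). The difference in response between the genes was not itself tested. At CT24 the ratio was 1.28 ± 0.05, and at CT0 1.32 ± 0.05 (SD, n = 4 each).

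The minor fibrillar genes included the single downward call. Col27a1, named after its values were seen, had 1865, 1927, 1994 and 1869 at CT48, and 2137, 2149, 2286 and 2330 at CT28. Every CT48 library lay below every CT28 library, although this contrast did not pass (-0.22 ± 0.10, adjusted p = 0.0678). Its slope in CT28 to CT48 was -0.45 ± 0.15 (adjusted p = 0.0101). The fall was not even, since its mean was 2202 ± 231 at CT36, 1530 ± 261 at CT40, 1782 ± 250 at CT44 and 1914 ± 60.5 at CT48 (SD, n = 4 each). Col24a1 had 575, 387, 444 and 425 at CT48 and 382, 389, 323 and 316 at CT28, overlapping in 1 library each, and had the only slope that passed in both parts among fibrillar members: 0.52 ± 0.14 in CT28 to CT48 (adjusted p = 0.00162) and 0.17 ± 0.06 in CT0 to CT24 (adjusted p = 0.0362). The CT0 to CT24 call of Col24a1 was lost under 11 of 24 alternatives, among them leaving out replicate 1 (adjusted p = 0.139), replicate 2 (0.126) or replicate 3 (0.137) and an estimated correlation (0.143), with adjusted p between 0.008 and 0.296 over the alternatives.

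Fibrillar genes best known from cartilage were also detected in the kidney. Col2a1, the chain of type II collagen, had 1553, 1619, 1597 and 1548 at CT48, and 1018, 1125, 1151 and 1067 at CT28, a difference of 0.54 ± 0.08 (adjusted p = 1.53e-06). Col11a2, a type XI chain, had 450, 414, 573 and 529 at CT48, and 339, 341, 354 and 418 at CT28, with a slope of 0.45 ± 0.13 (adjusted p = 0.00309). Col11a1, another type XI chain, was the fibrillar member that passed between CT24 and CT0: its values were 784, 764, 736 and 780 at CT24, and 842, 910, 917 and 946 at CT0, without overlap, and it fell by 0.24 on the log2 scale (SE 0.05, adjusted p = 0.000559). Its slope in CT28 to CT48 was -0.01 ± 0.12 (adjusted p = 0.962). Of 10 markers listed for cartilage and bone, 9 were in the table, 4 of these had a mean under 10, and Ibsp was at a median of 0. Their summed level was 1163 to 1487 at CT48 and 919 to 1056 at CT28, of which Ihh, which the kidney also expresses, made up 87.3% on average. Acan, the main cartilage proteoglycan, averaged only 37.3 and rose in CT28 to CT48 (2.85 ± 0.48, adjusted p = 8.9e-06). Of the 5 tested markers of this list, 2 rose and 0 fell in CT28 to CT48, against 59.3% of all genes, with a median slope of -0.0010. In CT0 to CT24, 1 rose and 1 fell, against 22.9% of all genes. The part of cartilage cells in the Col2a1 and Col11a2 results was not tested.

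**Figure D3:**
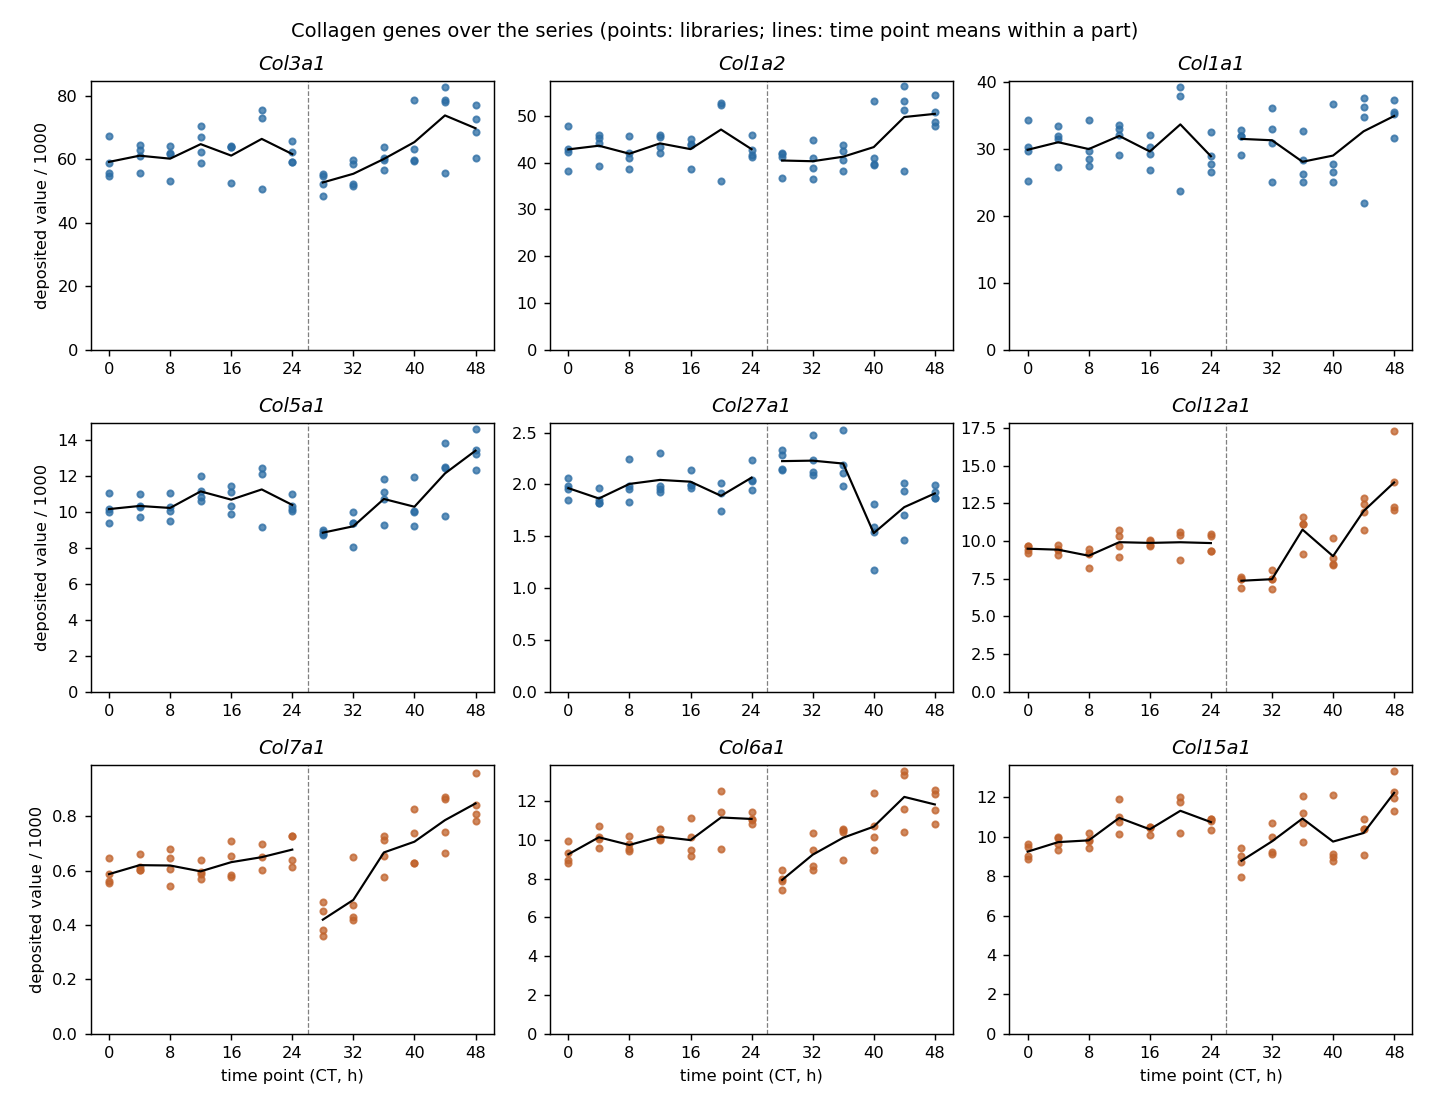
Deposited values divided by 1000 (axes from 0) of 5 fibrillar genes (blue) and 4 of other types (orange) in each library against time, with lines through the time-point means of each part and a dashed line where the parts meet. Col5a1, Col12a1 and Col7a1 stand higher at CT48 than at CT28 in every library, and Col1a1 overlaps.

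The promoters of 4 fibrillar genes are shown because in the same libraries 3 of these genes rose (Col5a1, Col3a1, Col1a2) and 1 fell (Col27a1) in CT28 to CT48. Each run holds the 150 bases before the RefSeq start of the gene (GRCm38.p6, + strand, written 5′ to 3′), at chr2:27886275-27886424 for Col5a1, chr1:45311388-45311537 for Col3a1, chr6:4505468-4505617 for Col1a2 and chr4:63215262-63215411 for Col27a1. Capitals mark matches to the letters TATAAA (as in the TATA box), CCAAT (as in the CCAAT box) or GGGCGG (as in the GC box), searched on both strands.
Col5a1: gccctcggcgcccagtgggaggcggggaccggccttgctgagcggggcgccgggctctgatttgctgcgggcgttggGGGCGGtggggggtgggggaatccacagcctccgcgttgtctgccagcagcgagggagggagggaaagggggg
Col3a1: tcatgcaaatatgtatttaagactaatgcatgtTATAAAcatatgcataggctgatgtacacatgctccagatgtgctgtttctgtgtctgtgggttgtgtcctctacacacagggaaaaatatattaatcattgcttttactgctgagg
Col1a2: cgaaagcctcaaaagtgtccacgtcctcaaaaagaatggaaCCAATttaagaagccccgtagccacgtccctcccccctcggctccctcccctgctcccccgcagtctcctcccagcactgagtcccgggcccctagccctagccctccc
Col27a1: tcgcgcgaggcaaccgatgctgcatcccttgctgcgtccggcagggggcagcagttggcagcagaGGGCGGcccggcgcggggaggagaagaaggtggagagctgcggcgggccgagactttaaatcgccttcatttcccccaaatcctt
Col5a1 and Col27a1, which moved in opposite directions, both hold a match to GGGCGG, while Col3a1 holds a match to TATAAA and Col1a2 a match to CCAAT. In windows of this length, GGGCGG occurs in 28.6% of 32851 RefSeq promoters and in 16 of the 29 members with an entry. CCAAT occurs in 24.5% of promoters and in 6 members, and TATAAA in 7.6% and in 4 members (Col10a1, Col11a2, Col17a1 and Col3a1). A member was counted if any of its promoter entries matched, while the percentages are of single promoters. The member counts and these percentages are therefore not on the same unit. A match describes the letters of the window, whatever their distance from the start, and shows no working box and no binding.

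Among members of other types, more passed upward than downward in each part. In CT28 to CT48, 16 of 26 passed, 13 upward and 3 downward, with a median slope of 0.28 log2 units per 24 h. In CT0 to CT24, 10 of 26 passed, 9 upward and 1 downward, with a median slope of 0.10, against a median of all genes of -0.0016. Upward calls in both parts were those of Col6a1, Col6a2, Col6a4, Col7a1, Col8a1, Col15a1, Col16a1 and Col18a1. The share that passed upward lay above the upward background of each part given above. Without CT20 replicate 1 and CT44 replicate 1, 15 of 26 passed in CT28 to CT48 and 9 of 26 in CT0 to CT24. Without CT40 replicate 3 and CT36 replicate 4, 14 of 26 passed in CT28 to CT48. Without CT28 and CT32, 2 of 26 passed in CT28 to CT48, Col7a1 and Col16a1. When a correlation among libraries of a time point was estimated, 9 passed there and 5 in CT0 to CT24.

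Among the FACIT collagens, Col12a1 and Col14a1, which both coat type I fibrils, differed. Col12a1 had 13913, 17289, 12254 and 12058 at CT48, and 7610, 6859, 7506 and 7463 at CT28, without overlap (0.90 ± 0.09, adjusted p = 1.35e-08). Its slopes were 1.08 ± 0.13 in CT28 to CT48 (adjusted p = 8.56e-08) and 0.09 ± 0.05 in CT0 to CT24 (adjusted p = 0.156). Col14a1 had 6081, 4952, 6117 and 6744 at CT48, and 5544, 5587, 6142 and 5766 at CT28, which overlap, with slopes of 0.07 ± 0.12 and 0.04 ± 0.07 that did not pass (adjusted p = 0.619 and 0.665). Per kb, Col12a1 over Col14a1 averaged 1.10 ± 0.35 at CT48 and 0.589 ± 0.03 at CT28 (SD, n = 4 each), with lowest and highest libraries of 0.823 and 1.61 at CT48 and of 0.563 and 0.632 at CT28. The highest of these ratios and the highest Col12a1 value belong to CT48 replicate 2, which also had the highest smooth muscle marker sum (55856, against 28488 to 33256 in the other CT48 libraries) and the highest mesothelium marker sum (5442). Without this library the slope of Col12a1 was 0.99 (adjusted p = 2.1e-07), and 9 fibrillar and 15 other members passed. Col16a1, a smaller FACIT, rose in both parts (0.46 ± 0.07 in CT28 to CT48, adjusted p = 4.81e-06, and 0.12 ± 0.04 in CT0 to CT24, adjusted p = 0.0301). The chains of type IX collagen, a cartilage FACIT, split: Col9a2 rose in CT28 to CT48 (0.38 ± 0.17, adjusted p = 0.049) and fell in CT0 to CT24 (-0.22 ± 0.08, adjusted p = 0.0337), Col9a1 fell in CT28 to CT48 (-0.35 ± 0.14, adjusted p = 0.0335), and Col9a3 fell there (-0.49 ± 0.20, adjusted p = 0.0363). Col9a3 averaged 105.5 ± 6.35 at CT48 and 152 ± 20.98 at CT28 (SD, n = 4 each), without overlap, and its other means in that part lay between 150 (CT44) and 162 (CT32). Col20a1 and Col22a1 were low and passed in neither slope, with Col22a1 at 10 to 58 in any library.

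Type VI collagen forms beaded filaments around cells from the chains of Col6a1 and Col6a2 with a further chain. Col6a1 had 11506, 10820, 12361 and 12584 at CT48, and 7883, 7415, 8452 and 7966 at CT28, a difference of 0.57 ± 0.08 (adjusted p = 2.25e-06). It had 11052, 11407, 11028 and 10790 at CT24, and 8934, 8805, 9937 and 9324 at CT0, a difference of 0.26 ± 0.06 (adjusted p = 0.00171). Neither pair of groups overlapped. Col6a2 had 11105, 11079, 11830 and 13015 at CT48, and 8992, 8667, 10986 and 9635 at CT28 (0.30 ± 0.08, adjusted p = 0.00303), and it was higher at CT24 than at CT0 by 0.24 ± 0.06 (adjusted p = 0.00661). Per kb, Col6a1 over Col6a2 averaged 1.91 ± 0.08 at CT48 and 1.58 ± 0.09 at CT28 (SD, n = 4 each), and 1.83 ± 0.02 at CT24 and 1.80 ± 0.05 at CT0.

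The further chains of type VI collagen gave unlike results. Col6a3, the usual partner of the first pair, passed in the CT0 to CT24 slope (0.21 ± 0.06, adjusted p = 0.00721) but not in that of CT28 to CT48 (0.19 ± 0.17, adjusted p = 0.339). Its CT48 libraries (6834 to 8901) nevertheless all lay above its CT28 libraries (5428 to 6214). The course between was uneven, with means of 6465 at CT32, 5306 at CT40 and 5619 at CT44. Col6a4, a related chain of far lower level, had 328, 305, 277 and 266 at CT48, and lay between 96 and 130 at CT28, the largest called difference of all members between those time points (1.40 ± 0.19, adjusted p = 4.94e-07). It also had 207, 231, 239 and 206 at CT24, and 149, 156, 159 and 158 at CT0, the largest called difference there (0.50 ± 0.09, adjusted p = 8.57e-05). Col6a5 and Col6a6 ranged from 13 to 207 and from 41 to 342 over libraries and passed in neither part, although their CT28 to CT48 slopes were -1.17 ± 0.62 (adjusted p = 0.106) and -0.72 ± 0.52 (adjusted p = 0.24). The genes Col6a4, Col6a5 and Col6a6 are near neighbours on chromosome 9, between 105687809 and 106096783, and are related in sequence, so reads could be split between them.

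Col7a1, the chain of the anchoring fibrils that tie epithelia to the matrix below, had 781, 958, 843 and 807 at CT48, and 361, 453, 485 and 380 at CT28. All CT48 libraries were above all CT28 libraries (1.02 ± 0.13, adjusted p = 1.96e-07). Its slope was 1.24 ± 0.14 in CT28 to CT48 (adjusted p = 2.28e-08) and 0.17 ± 0.06 in CT0 to CT24 (adjusted p = 0.038). Col26a1 rose in CT28 to CT48 by 0.20 ± 0.09 (adjusted p = 0.0406), and Col28a1 by 1.22 ± 0.47 (adjusted p = 0.025). Col28a1 had only 33, 9, 26 and 43 at CT48 and 12, 19, 10 and 13 at CT28, which overlap, and without CT28 and CT32 its slope was -0.11.

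Of the collagens of basement membranes and networks, Col15a1, Col18a1 and Col8a1 rose in both parts. Col15a1 had 12284, 11949, 11335 and 13365 at CT48, and 8713, 7956, 9436 and 9026 at CT28 (0.48 ± 0.08, adjusted p = 3.14e-05). It had 10923, 10907, 10330 and 10828 at CT24, and 9027, 9473, 8867 and 9624 at CT0 (0.22 ± 0.04, adjusted p = 0.000476), and neither pair overlapped. Col18a1 had 27317, 28342, 29361 and 27891 at CT48, and 21293, 21961, 24211 and 25019 at CT28 (0.29 ± 0.07, adjusted p = 0.00103). Its slope was 0.25 ± 0.08 in CT28 to CT48 (adjusted p = 0.0111) and 0.18 ± 0.04 in CT0 to CT24 (adjusted p = 0.00098). Col8a1, a chain of the type VIII networks of vessel walls and other tissues, had 434, 861, 527 and 581 at CT48, and 276, 284, 382 and 370 at CT28. Its slopes were 0.74 ± 0.21 in CT28 to CT48 (adjusted p = 0.00306) and 0.35 ± 0.07 in CT0 to CT24 (adjusted p = 0.000214). The partner chain Col8a2 went the other way, with 1281, 1333, 1457 and 1333 at CT48, and 1544, 1670, 1761 and 1568 at CT28, without overlap, and a slope of -0.38 ± 0.13 (adjusted p = 0.0134). Without CT28 and CT32 the slope of Col8a2 was 0.19. Col10a1, the network collagen of hypertrophic cartilage, had 1 to 39 in any library and passed in neither part.

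Of the membrane-spanning collagens 1 of 4 passed in a slope. Col13a1, found at cell adhesions and the neuromuscular junction, had 631, 724, 696 and 617 at CT48, and 512, 468, 456 and 480 at CT28. Its slope was 0.80 ± 0.16 in CT28 to CT48 (adjusted p = 6.06e-05) and -0.02 ± 0.05 in CT0 to CT24 (adjusted p = 0.792). Col23a1 had 1621, 1288, 1665 and 1693 at CT48, and 1896, 1712, 1681 and 1775 at CT28, overlapping at 1 library each, with a slope of -0.16 ± 0.09 (adjusted p = 0.133). Col25a1 (-0.24 ± 0.17, adjusted p = 0.211) and Col17a1, of the hemidesmosome (0.60 ± 0.41, adjusted p = 0.204), did not pass either.

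The slopes of CT28 to CT48 and CT0 to CT24 differed for 17 of 37 members, 8 of 11 fibrillar and 9 of 26 others, when the difference itself was tested over 51 libraries. Of all genes, 55.1% passed, 25.3% with a higher and 29.8% with a lower slope in CT28 to CT48. In simulated data with known changes in few genes and independent libraries, 17.2% of the calls of this test were false. That share cannot be carried over to these data, where most genes passed and libraries of a time point were correlated (estimate 0.252). The difference was upward for 15 members, with the largest in Col7a1 (1.07 ± 0.14), Col6a4 (1.02 ± 0.23) and Col12a1 (0.99 ± 0.13), and downward for Col27a1 (-0.52 ± 0.15) and Col6a5 (-1.60 ± 0.64). It did not pass for Col15a1 (0.17 ± 0.11, adjusted p = 0.177), Col18a1 (0.06 ± 0.09, adjusted p = 0.552), Col6a2 (0.11 ± 0.10, adjusted p = 0.378) or Col8a1 (0.39 ± 0.20, adjusted p = 0.104), which had upward slopes in both parts. Slopes that passed were also more frequent in the second part over all genes (59.3% in CT28 to CT48, 22.9% in CT0 to CT24). The median slope difference was 0.36 for fibrillar and 0.22 for other members, against -0.02 for all genes. With an estimated correlation within time points 4 fibrillar and 7 other members passed, and without CT28 and CT32 2 and 5.

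Single time points were also compared. For CT48 against CT28, 7 of 11 fibrillar members were higher and 0 lower, and 11 of 26 others were higher and 2 lower (Col9a3 and Col8a2), against 53.9% of all genes that passed, 25.7% higher and 28.1% lower. Groups without overlap were seen for 6 of 11 fibrillar (5 above, 1 below) and 13 of 26 other members (11 above, 2 below), against 48.7% of all genes. For CT24 against CT0, 0 fibrillar members were higher and 1 lower, and 8 of 26 others were higher and 0 lower, against 26.6% of all genes, 14.3% higher and 12.2% lower. Groups without overlap there were 3 of 11 fibrillar (2 above, 1 below) and 9 of 26 others (8 above, 1 below), against 28% of all genes. For CT36 against CT32, a step at which many genes of this series shift, 2 fibrillar (Col5a2 and Col2a1) and 8 other members were higher and 0 lower, against 34.8% of all genes, 15.7% higher and 19.1% lower. The fibrillar calls rest on single libraries: 0 passed without CT36 replicate 2, without CT36 replicate 3 or without CT32 replicate 1. Of the others, 5 passed without CT36 replicate 3 and 5 without CT32 replicate 3. Groups without overlap were seen for 1 of 11 fibrillar and 5 of 26 other members, all above, against 29.6% of all genes. At this step Col12a1 had 9140, 11570, 11155 and 11143 at CT36, and 7455, 8102, 7501 and 6791 at CT32 (0.52 ± 0.09, adjusted p = 0.0001), and Col13a1 had 602, 637, 582 and 724 at CT36, and 441, 419, 409 and 510 at CT32 (0.52 ± 0.12, adjusted p = 0.00116). The others were Col6a4, Col7a1, Col8a1, Col9a2, Col17a1 and Col28a1.

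Differences of any shape among time points passed for 8 fibrillar and 15 other members in CT28 to CT48, against 64.7% of all genes, and for 2 fibrillar and 11 others in CT0 to CT24, against 43.5%. Without CT20 replicate 1 the CT0 to CT24 counts were 5 fibrillar and 15 others. A 24 h rhythm fitted over all 51 libraries passed for 4 of 37 members, near the 12.3% of all genes that passed. These were Col9a1 (log2 amplitude 0.14, peak at 4.0 h, adjusted p = 0.0142), Col26a1 (0.09, 22.7 h, adjusted p = 0.0142), Col11a1 (0.08, 23.7 h, adjusted p = 0.0466) and Col27a1 (0.15, 6.8 h, adjusted p = 0.0472). With an estimated correlation within time points they had adjusted p = 0.697, 0.681, 0.734 and 0.717, so 0 of 37 members passed. In the authors' deposited table of a rhythm test, 5 of 11 fibrillar and 11 of 26 other members had a combined q under 0.05, against 41.3% of its 16099 genes. Col9a1 was at q = 1.91e-07 with a period of 27.4 h in the authors' deposited table, and Col12a1, Col5a1 and Col16a1 had a period of 28 h there. Periods of the members ran from 20 to 28 h, and several stood at exactly 28 h, which may be a limit of the search.

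**Figure D4:**
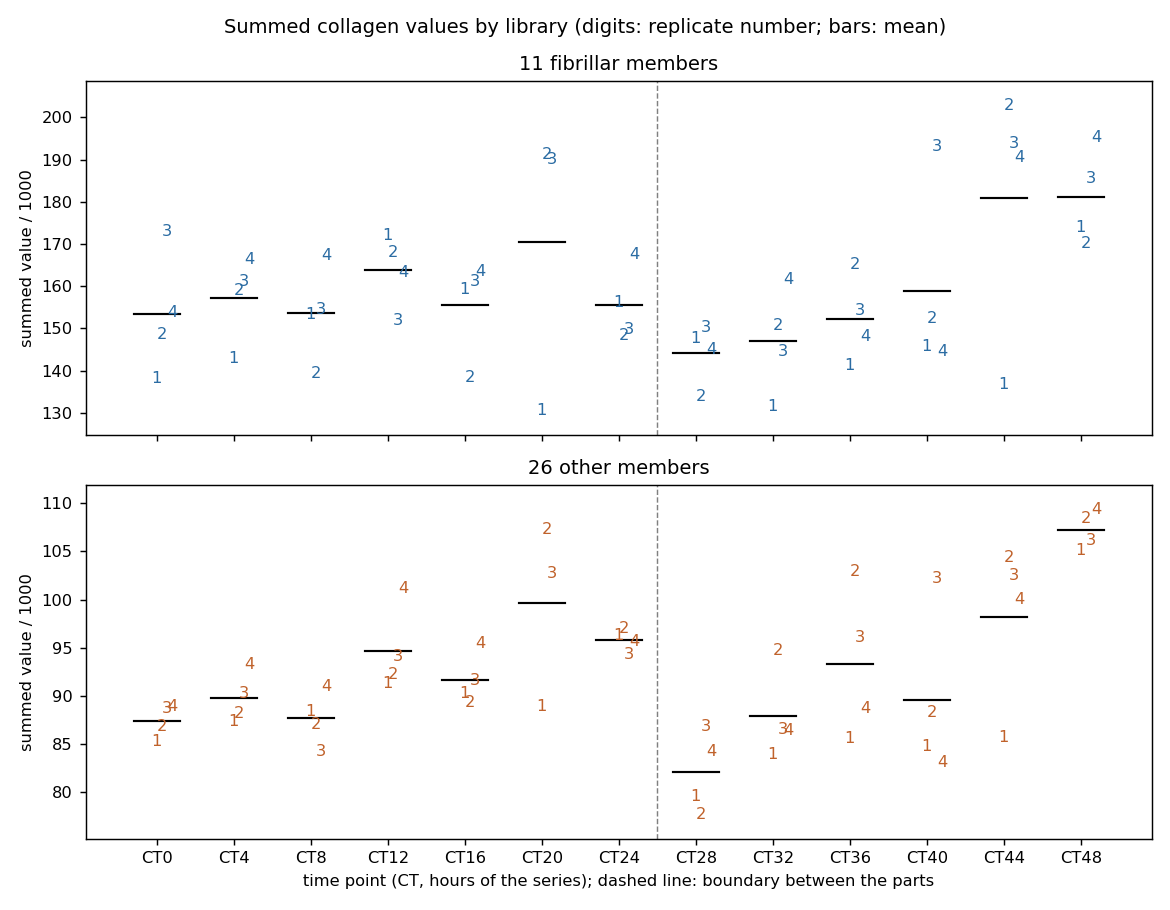
Summed deposited value divided by 1000 (axes do not start at 0) of the 11 fibrillar members (top) and of the 26 others (bottom) in each library, shown by its replicate number, with bars at the time-point means and a dashed line where the parts meet. In the fibrillar sum, replicate 1 of CT20 (130575) and of CT44 (136651) stand below the others of their time point, and replicate 3 of CT40 (193144) above.

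Summed over the 11 fibrillar genes, CT48 libraries averaged 181156 ± 11367 and CT28 libraries 144153 ± 7164 (SD, n = 4 each), with no overlap (170075 to 195146 at CT48 and 133876 to 150178 at CT28). CT24 libraries averaged 155462 ± 8781 and CT0 libraries 153408 ± 14602, which overlap. The CT0 mean includes replicate 3 with 173015, against 138168 to 153821 in the other CT0 libraries, with 7 of 11 fibrillar members above all of them. That library also had a skeletal muscle marker sum of 1193, where the median of CT0 libraries was 505. Without CT0 replicate 3, 1 fibrillar and 6 other members passed for CT24 against CT0. Summed over the 26 others, CT48 libraries averaged 107258 ± 1992 and CT28 libraries 82091 ± 4191, and CT24 libraries averaged 95822 ± 1172 and CT0 libraries 87408 ± 1731 (SD, n = 4 each), with no overlap in either pair. These sums are led by the most abundant and longest transcripts.

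Genes that build, process or remove collagen did not all follow it. Their counts are to be read against the shares of all genes, 59.3% in CT28 to CT48 (28.7% upward, 30.7% downward) and 22.9% in CT0 to CT24, and against a median slope of all genes of -0.02 in CT28 to CT48. Of 14 tested genes of collagen modification and folding, 12 passed in CT28 to CT48, 3 upward and 9 downward (median slope -0.39), and 3 in CT0 to CT24, all downward. Serpinh1, the chaperone HSP47 that binds the procollagen triple helix, fell (-1.18 ± 0.12, adjusted p = 5.49e-09), as did P4ha1 (-1.97 ± 0.27, adjusted p = 1.72e-06) and P4ha2 (-0.90 ± 0.21, adjusted p = 0.000534), subunits of prolyl 4-hydroxylases, and Fkbp14, a prolyl isomerase (-1.06 ± 0.10, adjusted p = 1.74e-09). In the single step of CT36 against CT32, 11 of these 14 genes passed, 2 higher and 9 lower (median -0.30), against 34.8% of all genes. For CT48 against CT28, 10 passed, 2 higher and 8 lower (median -0.23), against 53.9%. Slopes of these genes and of the lists below were not refitted without CT28 and CT32. Of 13 tested genes of propeptide processing and cross-linking, 6 passed in CT28 to CT48, all upward (median slope 0.19), a total share below that of all genes, and 2 in CT0 to CT24, 1 in each direction. They were led by Adamts2, which removes N-propeptides (1.07 ± 0.15, adjusted p = 7.59e-07), and the cross-linking enzyme Lox (0.93 ± 0.15, adjusted p = 6.84e-06), with Adamts3 at 0.89 and Loxl1 at 0.89.

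Genes of the surrounding matrix gave mixed counts, read against the same shares of all genes (59.3% in CT28 to CT48 and 22.9% in CT0 to CT24). The share that passed in CT28 to CT48 was below that of all genes for the fibril-associated, degradation and receptor lists, and above it for the elastic fibre and TGF-beta lists. Median slopes there were 0.24 for the fibril-associated, 0.20 for the elastic fibre, 0.0033 for the degradation, -0.01 for the receptor and 0.40 for the TGF-beta list. Of 14 fibril-associated proteoglycans and glycoproteins, 4 rose and 1 fell in CT28 to CT48, with Tnxb at 2.08 and Tnc at 0.92, Fn1 (fibronectin) at 0.79 and Lum (lumican), which fell, at -1.57. In CT0 to CT24, 3 rose and 2 fell. Of 14 elastic fibre genes, 7 rose and 4 fell in CT28 to CT48, with Ltbp2 at 1.62, Fbln2 at 1.25, Eln (elastin) at 1.06 and Fbn1 (fibrillin 1) at 0.99, and 1 rose and 1 fell in CT0 to CT24. Of 14 genes of collagen degradation and its inhibition, 5 rose and 3 fell in CT28 to CT48, with Mmp13, of low mean value, at -4.82, Ctsk at 1.07, Timp2 at 0.69 and Mmp2 at 0.66, and 2 rose and 0 fell in CT0 to CT24. Of 8 collagen receptors, 1 rose (Itgb1, 0.25) and 1 fell (Ddr2, -0.28) in CT28 to CT48, and 3 rose and 1 fell in CT0 to CT24. Of 13 genes of the TGF-beta pathway, a known inducer of collagen genes, 11 rose and 0 fell in CT28 to CT48, led by Ctgf (2.18), Tgfbr3 (0.66), Tgfb2 (0.56) and Smad3 (0.53), and 4 rose and 1 fell in CT0 to CT24. All these values are slopes in log2 units per 24 h.

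Markers of cells that could carry collagen, and of kidney epithelia, were read in the same libraries. Of all genes, 59.3% passed in the CT28 to CT48 slope, 28.7% upward and 30.7% downward. In the CT0 to CT24 slope 22.9% passed, 12.9% upward and 10% downward. The summed level of 13 kidney stroma markers was 46567 to 53597 at CT48 and 50652 to 53035 at CT28, with 4 upward and 3 downward slopes in CT28 to CT48, and 1 upward and 2 downward in CT0 to CT24. All 13 were in the table and none had a median of 0. The 5 macrophage markers in the table summed to 4318 to 5602 at CT48 and 3045 to 3276 at CT28, with 5 upward slopes, and the 6 endothelial markers to 33915 to 38724 at CT48 and 30342 to 31764 at CT28, with 5 upward and 1 downward. In CT0 to CT24 the upward slopes were 4 and 3 and the downward slopes 0 in both lists. Of 8 smooth muscle markers 1 rose and 0 fell in CT28 to CT48 and 0 rose and 1 fell in CT0 to CT24, and of 5 mesothelial markers 2 rose in CT28 to CT48 and 0 in CT0 to CT24. Of 9 tested skeletal muscle markers 2 fell in each part, of 7 tendon and fascia markers 2 rose and 2 fell in CT28 to CT48 and 1 rose in CT0 to CT24, of 2 adipose markers 1 fell in CT28 to CT48, and of 4 adrenal markers 1 rose and 1 fell there. Dpp4 and Fabp4, which other kidney cells express, made up 92.3% and 97.2% of the tendon and adipose sums. Nephron progenitor markers fell in 3 of 5 cases in each part. Most epithelial markers rose in CT0 to CT24, as some macrophage and endothelial markers did. There 5 of 6 proximal tubule, 4 of 6 collecting duct and 4 of 5 podocyte markers rose and 0 fell. Their summed levels did not overlap, with 109875 to 119390 at CT24 and 77776 to 90260 at CT0 for proximal tubule, 30374 to 31697 at CT24 and 22219 to 23627 at CT0 for collecting duct, and 35428 to 36408 at CT24 and 31875 to 33177 at CT0 for podocytes. By slope in CT28 to CT48, 0 proximal tubule markers rose and 1 fell, 4 collecting duct markers rose and 1 fell, and 2 podocyte markers rose and 2 fell. For CT48 against CT28, 3 proximal tubule markers were higher and 0 lower, 3 collecting duct markers higher and 0 lower, and 2 podocyte markers higher and 2 lower. Of all genes, 25.7% were higher and 28.1% lower there. Proximal tubule sums overlapped, with 94308 to 118685 at CT48 and 80022 to 101108 at CT28. The part of these cells in the collagen results was not tested.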

How the data were processed

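The analysis covers 51 poly-A libraries of fetal kidney. Tools named in the submitters' processing notes are bcl2fastq, STAR 2.5.2b (alignment) and featureCounts 1.5.0-p3 (counting), with the mm10 build. Neither the annotation, the strand setting nor the normalisation is named in those notes or the file headers. The main table deposited by the authors was treated as a score: whole numbers that had been normalised and then rounded. This was read from the values, as the variance of low genes in CT0 to CT24 was 0.692 times their mean, less than counting alone would give, although in CT28 to CT48 it was 3.36 times. Since depth is not known, errors come from the spread over libraries and not from counting intervals. The rhythm table deposited by the authors holds p-values and q-values with period, phase and amplitude scores, per the file headers.

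Genes with mean values of 10 or more (14426 of 16099) were fitted as log2(value + 1) in limma 3.58.1 (R 4.3.3), with robust moderation and a trend of variance on level. Slopes were lines in hours inside each part, scaled to 24 h although CT28 to CT48 spans less. The slope difference and the 24 h rhythm used all libraries, and time-point contrasts and moderated F tests used the libraries of their part. P-values were Benjamini-Hochberg adjusted over all genes tested, with a threshold of 0.05. Fold changes on this scale understate changes of low genes. The models were tested on simulated data in which few genes changed and libraries were independent, unlike these data. There the slope difference gave false calls above the nominal share (17.2%). The shares were 7.78% for CT36 against CT32, 6.96% for CT24 against CT0, 6.73% for the CT28 to CT48 slope and 5.1% for CT48 against CT28. Each share came from a single simulated draw, so these smaller departures from the nominal share cannot be told from chance. A change of 0.25 log2 units was recovered in 71% of cases by the CT0 to CT24 slope. The CT28 to CT48 slope recovered it in 31% and the slope difference in 20%.

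The members and lists were chosen with earlier results of these data known. Library values are given for members with the largest called slopes (up to 6 fibrillar and 8 others) and for the 2 most abundant of each structural group. From each partner list up to 4 genes are named. All 37 members were found in GENCODE M21, and 29 had a RefSeq promoter. Replicate numbers did not pair libraries: the median correlation of deviations was 0.01 for the same number at other time points and -0.01 for other numbers. Another ID prefix marks CT36 replicate 3 and CT12 replicate 4, without a reason in the labels.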

Additional observations from a re-analysis of the deposited data

Results flagged for a closer look

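The slope of CT28 to CT48 minus that of CT0 to CT24 passed for 17 members (limma, adjusted p under 0.05). It was upward for Col7a1 (1.07), Col6a4 (1.02), Col12a1 (0.99), Col13a1 (0.82), Col5a1 (0.63), Col9a2 (0.60), Col3a1 (0.49), Col6a1 (0.49), Col11a2 (0.49), Col5a2 (0.43), Col1a2 (0.39), Col24a1 (0.36), Col16a1 (0.35), Col2a1 (0.34) and Col26a1 (0.27). It was downward for Col27a1 (-0.52) and Col6a5 (-1.60). In simulated data with few changed genes and independent libraries, a setting unlike these data, 17.2% of the calls of this test were false.

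Of 276 sets of 4 libraries examined for a value far from the rest, 14 stood out, while chance gives about 1 in 20 (13.8). Values are given as the library over the mean of the other libraries of its time point. Far above were, in CT40 replicate 3, Col15a1 (1.35, 12105 against 8791 to 9153), Col1a2 (1.33, 53199 against 39403 to 41002) and the fibrillar sum (1.31, 193144 against 144559 to 152313). Also high were Col18a1 in CT32 replicate 2 (1.18), Col8a1 in CT12 replicate 4 (1.13), Col9a3 in CT12 replicate 4 (1.34) and Col9a3 in CT48 replicate 4 (1.12). Far below were, in CT16 replicate 2, Col3a1 (0.821, 52484 against 63725 to 64223) and the fibrillar sum (0.858, 138363 against 159261 to 163554). Also low were Col1a2 in CT28 replicate 2 (0.879), Col5a2 in CT48 replicate 2 (0.913), Col6a1 in CT36 replicate 1 (0.852), Col15a1 in CT16 replicate 3 (0.966) and Col15a1 in CT24 replicate 3 (0.949). Library CT12 replicate 4 is one of those with another ID prefix.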

How the results depend on the processing

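Over 9 comparisons, 159 alternative counts of called members were within 1.5 times the value reported and 29 were not. The CT28 to CT48 slope (24 members) gave 14 without CT28 and 4 without CT28 and CT32, where calls among all genes were 1074, against 8561 with all time points. The CT0 to CT24 slope (11) gave 4 in 1 fit over all 51 libraries, 5 with an estimated correlation within time points (0.228), 4 with time-point means as the unit, 4 without CT0 and 4 without CT24. The slope difference (17) gave 11 with an estimated correlation and 7 without CT28 and CT32. Any difference gave 3 in CT0 to CT24 (13) in 1 fit over all libraries and 20 without CT20 replicate 1, and 9 in CT28 to CT48 (23) without CT28 and CT32. CT24 against CT0 (9) gave 5 in 1 fit over all libraries, and CT36 against CT32 (10) gave 5 without the libraries of another ID prefix. The rhythm (4) gave 0 with an estimated correlation, 0 with time-point means and 2 with no filter. Alternatives chosen after the data were seen were those without CT20 replicate 1 and CT44 replicate 1, without CT40 replicate 3 and CT36 replicate 4, and without CT48 replicate 2. The causes of these moves were not tested.

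Leaving out 1 replicate at a time gave ranges of 19 to 22 (slope, CT28 to CT48), 6 to 9 (slope, CT0 to CT24), 13 to 17 (slope difference), 17 to 21 and 6 to 17 (any difference, CT28 to CT48 and CT0 to CT24), 17 to 22 (CT48 against CT28), 6 to 8 (CT24 against CT0), 5 to 10 (CT36 against CT32) and 0 to 1 (rhythm). With the replicate number as a block the counts were 25, 11, 17, 23, 15, 20, 9, 11 and 3 in that order, and the numbers are not shown to pair libraries. Slopes that turned round were those of Col28a1 (-0.11) and Col8a2 (0.19) in CT28 to CT48 without CT28 and CT32. In CT28 to CT48, Col5a1, Col1a2, Col7a1 and Col16a1 passed under all 26 alternatives, and in CT0 to CT24 Col15a1 and Col18a1 under all 24. Under quantile scaling the share of upward calls among all genes was 45.6% for the CT0 to CT24 slope, against 56.4% as deposited. Depth is unknown, so counting error could not be set apart from the spread between libraries.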
